A study of Mus musculus with 9 samples.

Results

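The genes described here are the 7 that encode the core of MHC class II antigen presentation: Cd74, H2-Aa, H2-Ab1, H2-Eb1, H2-DMa, H2-DMb1 and Ciita. They were taken by symbol from the 23238 gene symbols of 9 libraries made from the gastrocnemius, a calf muscle, of female C57BL/6 mice given as 4 weeks of age. Each of the 3 groups had 3 libraries. The Normal mice received 4 saline injections and distilled water by mouth for 9 days. Mice of the Cisplatin group had distilled water too, with 4 intraperitoneal doses of 3 mg/kg cisplatin, a chemotherapy agent that damages DNA. The RP mice were dosed with cisplatin in the same way and took RP at 100 mg/kg orally over the 9 days. The labels do not spell out RP; the series title concerns an extract of Paeonia lactiflora, a peony. RP was not given to mice free of cisplatin, so its own action and its action on the drug's effects cannot be told apart. Nothing in the labels ties each sample to its own animal, so the p-values cover the spread among these samples, which may be technical.

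MHC class II molecules show peptides from the endosome to CD4 T cells. An alpha and a beta chain pair in the endoplasmic reticulum around the invariant chain, which fills the peptide groove and guides the complex to the endosome. Proteases there trim the invariant chain, and the H2-DM dimer exchanges its last fragment for a peptide. Dendritic cells, B cells and macrophages carry most class II in a tissue, and in resting muscle it is found mainly on such cells between the fibres. Transcription of the whole set depends on the coactivator CIITA, which docks on factors bound to conserved X and Y boxes in the promoters and is itself induced by interferon gamma.

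Total counts ran from 8196030 to 10678342 per library, and 12859 genes passed the low-count filter. The genes tested as markers of skeletal muscle were abundant in each group, with summed levels of 99400 to 111000 CPM (counts scaled to a common library size) in Normal, against 74400 to 99600 in Cisplatin and 99900 to 115000 in RP. CPM were scaled by the TMM method. Since QuantSeq libraries read a tag near the 3′ end of each transcript, levels of different genes were compared without scaling by length. Of the 7 genes, 6 passed the filter and Ciita did not. In the Normal and RP groups all 3 libraries of each of the 6 genes reached the filter's level of 1.09 CPM, and in Cisplatin 0 to 2 libraries did. The genes thus entered the test through the groups in which they were high, and counts over the 6 are given as a description.

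The class II set was at its lowest in the Cisplatin muscle and was partly present in RP. Summed over the 7 genes, the level was 188 to 256 CPM in the Normal libraries, 3.09 to 9.98 CPM in Cisplatin and 42.4 to 78.3 CPM in RP. The 3 ranges did not overlap, and the group means in Cisplatin and RP were 2.55% and 28.9% of the Normal mean. In Cisplatin against Normal, all 6 tested genes fell, with log2 fold changes from -5.72 to -4.23 and a median of -5.30; the median over all genes tested was -0.08, and 28.2% of them fell while 26.3% rose. In RP against Cisplatin the same 6 rose, by 2.58 to 4.10 with a median of 3.41, beside a median of 0.07 over all genes, of which 24.6% rose and 24.2% fell. These comparisons share the Cisplatin libraries, so each gene's values are given for all groups below. In bulk muscle, fewer cells that carry a transcript and less of it per cell cannot be told apart.

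**Figure D1:**
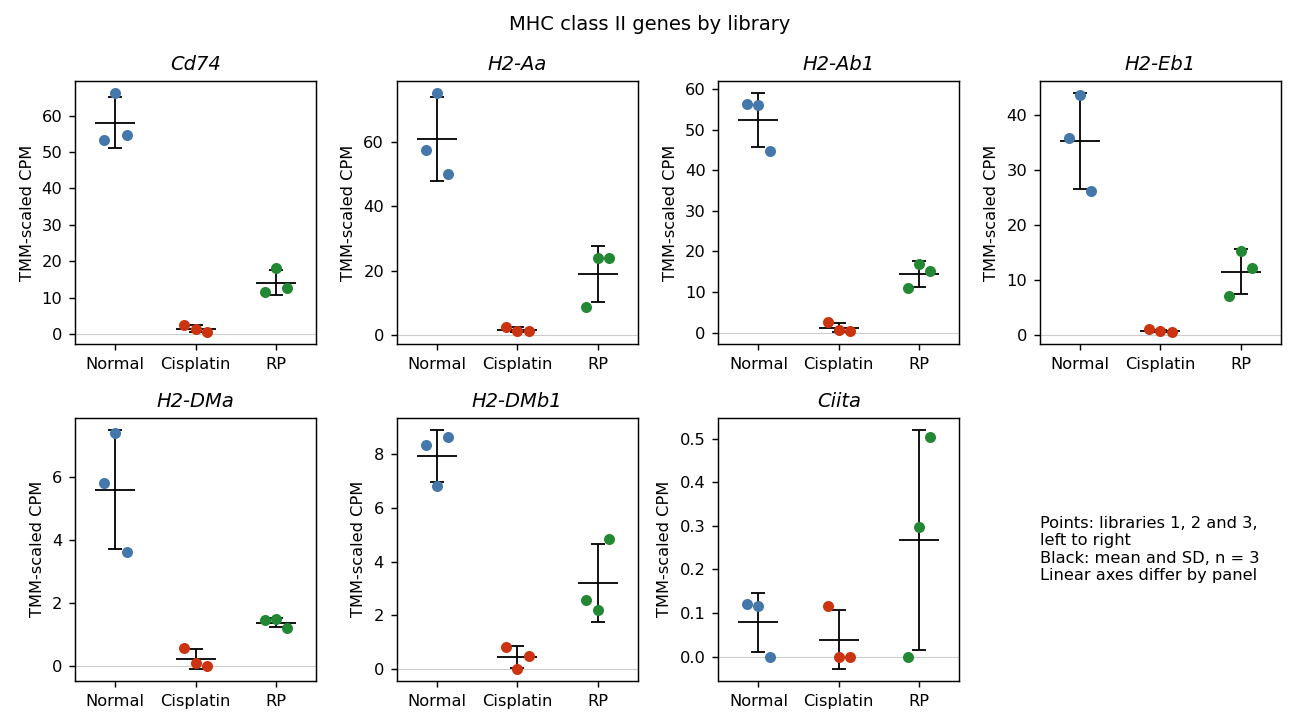
TMM-scaled CPM of each of the 7 genes in every library of Normal, Cisplatin and RP, on a linear axis per panel, with the mean and SD (n = 3) in black. For the 6 genes other than Ciita the RP libraries lie between those of Cisplatin and Normal without overlap; Ciita does not exceed 0.504 CPM in any library.

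Cd74 encodes the invariant chain and lies on chromosome 18, 60803848 to 60812652 on the plus strand of GRCm38 (GENCODE M21). Its level was 53.4, 66.2 and 54.7 CPM in the Normal libraries 1 to 3, then 2.47, 1.33 and 0.594 CPM in Cisplatin and 11.7, 18.1 and 12.6 CPM in RP. Every Cisplatin library lay below every RP library, and every RP library below every Normal library. Cd74 fell in Cisplatin against Normal (log2 fold change -5.30 ± 0.32 SE, adjusted p = 6.06e-08) and rose in RP against Cisplatin (3.26 ± 0.32, adjusted p = 4.45e-06). RP still fell short of Normal (-2.04 ± 0.25, adjusted p = 0.00182), with the eighth smallest p of all genes in that comparison.

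H2-Aa and H2-Ab1 encode the alpha and beta chains of I-A, the class II molecule that C57BL/6 mice display. H2-Aa was at 57.5, 75.3 and 50 CPM in Normal, 2.47, 1.14 and 1.07 CPM in Cisplatin, and 8.78, 24.0 and 23.9 CPM in RP. RP replicate 1 was the lowest RP library by a wide margin, yet it lay above every Cisplatin library. H2-Aa fell in Cisplatin (log2 fold change -5.30 ± 0.41, adjusted p = 3.82e-07) and rose by 3.61 ± 0.41 in RP against Cisplatin (adjusted p = 1.57e-05). H2-Ab1 was at 56.3, 56.2 and 44.7 CPM in Normal, 2.58, 0.665 and 0.476 CPM in Cisplatin, and 10.9, 17 and 15.3 CPM in RP. The beta chain gene thus took the same order of groups as its partner, with Cisplatin replicate 1 the highest of its group. Its log2 fold changes were -5.42 ± 0.38 in Cisplatin against Normal (adjusted p = 1.58e-07) and 3.56 ± 0.39 in RP against Cisplatin (adjusted p = 9.70e-06).

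H2-Eb1 encodes the beta chain of I-E, whose alpha chain gene is disabled in C57BL/6. That gene, H2-Ea-ps, had 0 counts in all 9 libraries. H2-Eb1 was at 35.8, 43.7 and 26.2 CPM in Normal, 0.939, 0.570 and 0.476 CPM in Cisplatin, and 7.02, 15.3 and 12.1 CPM in RP. It was called together with the I-A genes although it has no partner chain transcript here. Among the 6 tested genes H2-Eb1 had the lowest fold change in Cisplatin against Normal (-5.72 ± 0.38, adjusted p = 9.78e-08) and the highest in RP against Cisplatin (4.10 ± 0.39, adjusted p = 3.16e-06). The SEs of the 4 abundant genes overlapped in Cisplatin against Normal, and differences between genes were not tested.

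H2-DMa and H2-DMb1 encode the chains of the peptide exchanger H2-DM and were the least abundant genes tested. H2-DMa had 48, 64 and 30 counts in Normal (5.79, 7.39 and 3.61 CPM), 5, 1 and 0 counts in Cisplatin, and 14, 15 and 12 counts in RP (1.45, 1.49 and 1.21 CPM). H2-DMb1 had 69, 59 and 72 counts in Normal (8.32, 6.81 and 8.65 CPM), 7, 0 and 4 counts in Cisplatin, and 25, 22 and 48 counts in RP (2.58, 2.18 and 4.84 CPM). The groups did not overlap for either chain, but in Cisplatin their levels rest on 6 and 11 counts, with exact Poisson 95% intervals of 2.20 to 13.1 and 5.49 to 19.7 that cover counting error only. H2-DMa fell in Cisplatin (-4.58 ± 0.68, adjusted p = 8.32e-05) and rose in RP against Cisplatin (2.58 ± 0.73, adjusted p = 0.0104). H2-DMb1 fell (-4.23 ± 0.61, adjusted p = 6.45e-05) and rose likewise (2.93 ± 0.63, adjusted p = 0.00177). The sequence of H2-DMb1 is close to that of H2-DMb2, which had 1 count in all; how reads were divided between these copies is not given in the sources used here. The annotated span of H2-DMa overlaps that of Brd2 on the other strand at the 5′ ends of both genes, away from the 3′ ends that the libraries read; the strand setting of the counting is not given either.

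Ciita, the gene of the coactivator, lies on chromosome 16, 10480059 to 10528418 on the plus strand. It had 1, 1 and 0 counts in Normal, 1, 0 and 0 in Cisplatin and 0, 3 and 5 in RP. Over each group this came to 2, 1 and 8 counts, with exact Poisson 95% intervals of 0.242 to 7.22, 0.0253 to 5.57 and 3.45 to 15.8. The intervals overlapped, but such overlap is not a test of a difference. Ciita was below the filter at this depth, so a change between groups was not tested. A fold change is not given, since Normal and Cisplatin lay under a floor of 3 counts per group.

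Cisplatin replicate 1 held 85 of the 151 counts that the 7 genes had in that group, against 40 and 26 in the others. Without it, the log2 fold change in Cisplatin against Normal was -6.46 for H2-Ab1, -6.41 for H2-DMa and -5.11 for H2-DMb1, and that in RP against Cisplatin was 4.60, 4.40 and 3.81. Without Cisplatin replicate 2 those of H2-DMb1 were -3.58 and 2.28. The calls of all 6 genes in both comparisons held when any single library of the groups compared was left out.

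The set was less abundant in RP than in Normal, in a comparison in which few genes differed. In RP against Normal only 0.319% of genes fell and 0.187% rose, 41 and 24 genes; with library size as the only scaling 24 fell and 36 rose. Of the 6 class II genes tested, 4 were among those that fell: Cd74, H2-Ab1 (-1.86 ± 0.29, adjusted p = 0.00871), H2-Eb1 (-1.62 ± 0.27, adjusted p = 0.0160) and H2-Aa (-1.69 ± 0.31, adjusted p = 0.0338). H2-DMa (-2.01 ± 0.53, adjusted p = 0.130) and H2-DMb1 (-1.31 ± 0.47, adjusted p = 0.257) were not called. For all 6, every RP library lay below every Normal library, a pattern shown by 9.52% of all genes tested; the corresponding shares were 31.9% for lower levels in Cisplatin against Normal and 29.0% for higher levels in RP against Cisplatin. The RP means were 24.3% of the Normal mean for Cd74, 31.0% for H2-Aa, 27.5% for H2-Ab1, 32.5% for H2-Eb1, 24.7% for H2-DMa and 40.4% for H2-DMb1.

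These RP against Normal calls were less stable than those against Cisplatin. The number of fallen class II genes was 1 without Normal replicate 1 or RP replicate 1 and 2 without RP replicate 3; Cd74 was called throughout, with adjusted p up to 0.0226. H2-Ab1 and H2-Eb1 lost their calls without Normal replicate 1 or RP replicate 1, H2-Eb1 also without RP replicate 3, and H2-Aa without any 1 of the Normal and RP libraries except RP replicate 2. H2-Aa was also not called with library size as the only scaling (adjusted p = 0.0556, within a range of 3.09e-05 to 0.103 over its alternatives), while H2-DMa was called by DESeq2 (adjusted p = 0.00974) and without a filter (0.0291), within a range of 0.00974 to 0.437.

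**Figure D2:**
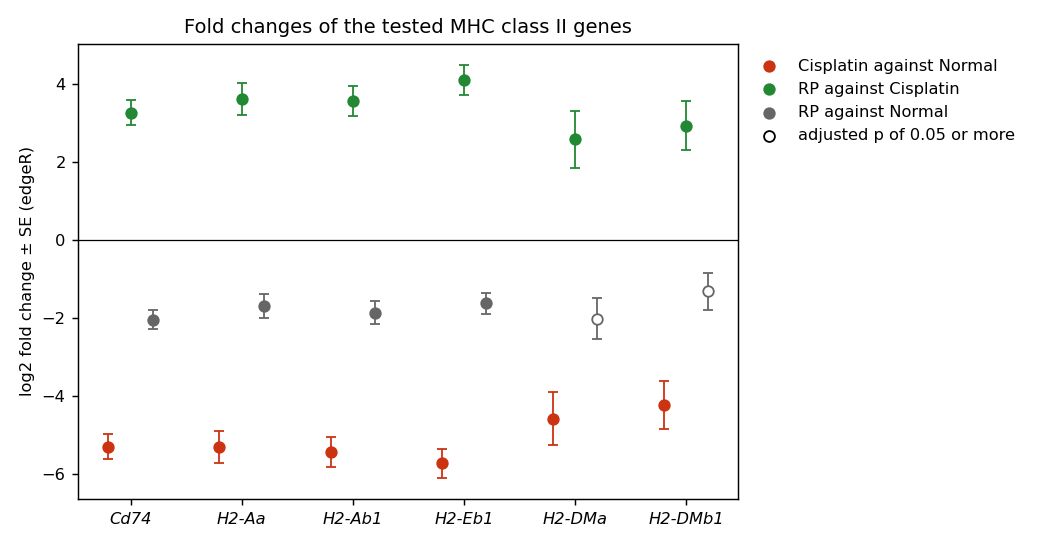
Log2 fold changes ± SE from edgeR for the 6 tested class II genes in the 3 comparisons; open circles have an adjusted p of 0.05 or more. All 6 lie between -5.72 and -4.23 in Cisplatin against Normal and between 2.58 and 4.10 in RP against Cisplatin, and in RP against Normal only H2-DMa and H2-DMb1 are open.

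Among themselves the genes kept a similar order of abundance across the groups. In Normal the ranges of H2-Aa (50 to 75.3 CPM), Cd74 (53.4 to 66.2) and H2-Ab1 (44.7 to 56.3) overlapped, H2-Eb1 (26.2 to 43.7) lay below all 3, and the H2-DM genes lay lower still, with overlapping ranges of 6.81 to 8.65 for H2-DMb1 and 3.61 to 7.39 for H2-DMa. Of the counts of the 7 genes, Cd74 made up 26.4% in Normal (exact Clopper-Pearson 95% interval 25.2 to 27.5%), 26.5% in Cisplatin (19.6 to 34.3%) and 22.1% in RP (20.3 to 24.1%). The share of Cd74 by library was 24.6 to 29.1% in Normal and 17.9 to 27.5% in RP, so the spread between RP libraries was wider than the interval, which covers counting error only. H2-DMb1 made up 3.58% in Normal (3.11 to 4.11%), 7.28% in Cisplatin (3.69 to 12.7%) and 5.0% in RP (4.07 to 6.08%). The ratio of H2-Aa to H2-Ab1 counts was 1.02, 1.34 and 1.12 in Normal and 0.802, 1.42 and 1.56 in RP. RP replicate 1 was the only library of these 6 with fewer counts for the alpha chain gene than for the beta chain gene.

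The 5 H2 genes of the set lie in the class II region of the mouse MHC, on chromosome 17 of GRCm38. In the order of the chromosome these are H2-DMa (34119541 to 34139101, plus strand), H2-DMb1 (34153072 to 34160230, plus), H2-Ab1 (34257689 to 34269419, plus), H2-Aa (34282744 to 34287823, minus) and H2-Eb1 (34305867 to 34316674, plus). The stretch from H2-Oa to H2-Eb2, 34092340 to 34341412, spans 249 kb and holds 14 protein-coding genes in GENCODE M21, of which 10 were tested. Between H2-DMb1 and H2-Ab1 lie Psmb9, Tap1, Psmb8 and Tap2, which serve class I presentation as immunoproteasome subunits and peptide transporters. Psmb9 (-2.52 ± 0.39), Psmb8 (-1.35 ± 0.29) and Tap2 (-0.89 ± 0.35) fell in Cisplatin against Normal, and Tap1 was not called (-0.42 ± 0.28, adjusted p = 0.227). All 4 rose in RP against Cisplatin, by 1.42 to 3.21. In RP against Normal, where the neighbouring I-A genes fell, Tap1 rose (1.46 ± 0.27, adjusted p = 0.0320), and Psmb9 (0.69), Psmb8 (0.70) and Tap2 (0.53) were not called. Brd2, which encodes a chromatin reader and lies next to H2-DMa, was at 125 ± 19.9, 164 ± 8.35 and 159 ± 12.2 CPM (SD, n = 3) in Normal, Cisplatin and RP and rose in Cisplatin by 0.38 ± 0.14 (adjusted p = 0.0285). The annotated spans of Psmb9 and Tap1 overlap on opposite strands at the 5′ ends of both genes, away from the 3′ ends that the libraries read. The stretch held genes called in opposite directions in the same comparison.

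**Figure D3:**
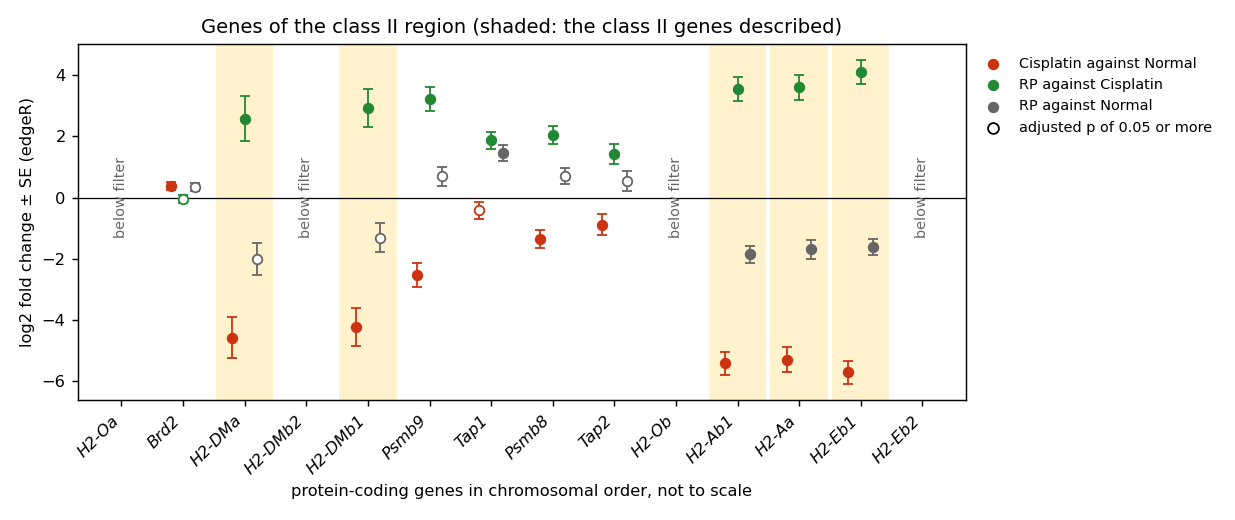
Log2 fold changes ± SE from edgeR for the protein-coding genes from H2-Oa to H2-Eb2 in chromosomal order, with the 5 class II genes described here shaded and open circles for an adjusted p of 0.05 or more. In RP against Normal the shaded genes lie below 0 and the 4 class I processing genes between 0.53 and 1.46 above it; H2-Oa, H2-DMb2, H2-Ob and H2-Eb2 were below the filter.

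Promoter sequence is shown for 3 of the genes, since class II genes are known to share X and Y boxes. The RefSeq table of promoters (GRCm38.p6, 250 bases before to 50 after a start) held 4 of the 7 genes: H2-Aa, H2-Eb1, H2-DMb1 and, with 2 starts, H2-DMa. Both strands were searched for the Y box as CTGATTGG, for its core as GATTGG, which lies within the Y box, and for the X box core as CTAGNNAC, with N any base. In the lines that follow, 5′ to 3′ on the gene's strand, capitals mark these matches. The windows are chr17:34287774-34288073 (minus strand), chr17:34305617-34305916 (plus) and chr17:34152941-34153240 (plus).
H2-Aa: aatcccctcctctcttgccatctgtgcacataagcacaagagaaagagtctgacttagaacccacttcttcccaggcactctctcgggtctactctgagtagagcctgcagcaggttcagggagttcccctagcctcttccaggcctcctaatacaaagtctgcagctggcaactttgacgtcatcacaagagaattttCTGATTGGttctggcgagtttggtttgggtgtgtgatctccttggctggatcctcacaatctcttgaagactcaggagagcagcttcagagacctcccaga
H2-Eb1: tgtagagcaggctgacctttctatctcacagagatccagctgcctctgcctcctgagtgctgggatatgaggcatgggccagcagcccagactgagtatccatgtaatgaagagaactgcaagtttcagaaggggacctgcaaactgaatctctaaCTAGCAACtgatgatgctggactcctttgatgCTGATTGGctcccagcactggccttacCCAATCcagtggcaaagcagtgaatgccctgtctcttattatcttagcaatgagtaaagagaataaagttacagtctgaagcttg
H2-DMb1: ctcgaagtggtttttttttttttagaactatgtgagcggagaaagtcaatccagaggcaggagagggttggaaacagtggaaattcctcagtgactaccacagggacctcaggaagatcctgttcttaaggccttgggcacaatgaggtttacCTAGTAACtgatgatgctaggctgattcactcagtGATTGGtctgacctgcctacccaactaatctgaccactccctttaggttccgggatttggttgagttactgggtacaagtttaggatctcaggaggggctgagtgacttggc

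Counted from the annotated start at 0, the Y box began at -51 in H2-Aa and at -62 in H2-Eb1, and 4.10% of all 32851 promoter windows held it. H2-DMb1 held the Y box core at -62, as did 16.1% of windows. The X box core began at -94 in H2-Eb1 and at -97 in H2-DMb1 and was held by 10.4% of windows; both cores were present in 1.59%. H2-Eb1 had a second core on the opposite strand at -35. In H2-DMa, whose windows are not printed, the Y box core was found once, at -199 from its second start, and the first window held no match. These windows are chr17:34122582-34122881, which overlaps the annotated span of Brd2, and chr17:34125268-34125567. Both lie within the annotated span of H2-DMa, which ends at 34139101. Any other start of H2-DMa was not searched. An exact match to the X box core string was not found in H2-Aa or in either window of H2-DMa. H2-Aa holds the near match ctggcaac before its Y box. Near matches were not searched for, so the lack of an exact match does not show that an X box is absent. A match describes these letters only and is not evidence of binding.

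In whole muscle, transcripts of the factors that bind these boxes changed far less than those of the class II genes. Levels of these factors in the cells that carry class II were not measured. Rfx5, Rfxap and Rfxank encode the RFX complex at the X box, Nfya, Nfyb and Nfyc the NF-Y trimer at the Y box, and Creb1 a partner of both. All 7 were tested, and in Cisplatin against Normal 2 fell and 5 were not called, with a median of -0.23. The 2 were Creb1 (-0.55 ± 0.13, adjusted p = 0.00346), from 67.3 ± 5.45 to 45.9 ± 1.35 CPM, and Nfyc (-0.41, adjusted p = 0.0319). Rfx5 was at 6.82 ± 0.603, 6.43 ± 1.04 and 8.66 ± 0.534 CPM in Normal, Cisplatin and RP and was called in none of the 3 comparisons. Nfyc (0.69) and Nfyb (0.37) rose in RP against Cisplatin, and 0 of 7 were called in RP against Normal by edgeR, DESeq2 or limma-voom, with 1 at an unadjusted p under 0.05.

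Among genes of the interferon gamma route to Ciita, Ifng, the ligand, had 0 counts in each group, so its level was under the floor of 3 counts per group. The receptor chain gene Ifngr2 was at 51.1 ± 8.11, 26.1 ± 4.38 and 45.8 ± 6.91 CPM in Normal, Cisplatin and RP. It fell in Cisplatin (-0.97, adjusted p = 0.000370) and rose in RP against Cisplatin (0.81, adjusted p = 0.00167). Ifngr1, the kinase genes Jak1 and Jak2, and Irf1, which encodes a transcription factor induced by interferon, were not called in Cisplatin against Normal. In RP against Cisplatin Irf1 rose (1.05, adjusted p = 0.00836) and Jak1 fell (-0.35, adjusted p = 0.0346). In RP against Normal none of these 5 expressed genes was called by edgeR, DESeq2 or limma-voom, and Irf1 (0.72, adjusted p = 0.305) had an unadjusted p of 0.0237.

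The endosomal enzymes that prepare class II and its peptides split in both directions. Ctss, the cathepsin that trims the invariant chain in antigen-presenting cells, was at 31.7 ± 1.41, 11.6 ± 4.04 and 19.1 ± 6.77 CPM in Normal, Cisplatin and RP. It fell in Cisplatin (-1.45, adjusted p = 0.000491) and rose in RP against Cisplatin (0.72, adjusted p = 0.0401). The asparagine endopeptidase gene Lgmn fell (-1.61, adjusted p = 0.00322) and rose in RP against Cisplatin (1.27, adjusted p = 0.0152). The broadly expressed cathepsin genes Ctsl (2.12, adjusted p = 1.51e-07) and Ctsd (1.24, adjusted p = 5.49e-06) rose in Cisplatin instead. Ifi30, which encodes the thiol reductase GILT, rose with them, from 20.1 ± 3.93 to 60.9 ± 11.7 CPM (1.60, adjusted p = 0.000160), and was at 21.6 ± 9.34 CPM in RP. All 3 fell again in RP against Cisplatin, by 1.13 to 1.49, and Ctsb was not called in any comparison. In RP against Normal edgeR called 0 of the 6, with 2 at an unadjusted p under 0.05. Ctsl (0.67, adjusted p = 0.0598) was the 1 gene called by DESeq2 and limma-voom.

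Of 6 turnover and costimulation genes 3 were tested, and 1 fell in Cisplatin against Normal. March1, the ubiquitin ligase that removes class II from the surface of antigen-presenting cells, fell from 3.00 ± 0.861 to 1.11 ± 0.569 CPM in Cisplatin (-1.41, adjusted p = 0.0334), while its relative March8 was at 25.1 ± 2.57 and 23.2 ± 2.26 CPM and was not called. Cd40, a costimulatory receptor, had 30, 34 and 12 counts over Normal, Cisplatin and RP and was not called (0.07 in Cisplatin against Normal and -1.59, adjusted p = 0.0740, in RP against Cisplatin). Cd80 had 3, 2 and 1 counts. Cd86 and Cd83, with 32 and 46 counts over Normal, had 3 and 0 counts over Cisplatin and 18 and 18 over RP and were below the filter. The other classical and accessory class II genes were near or at 0: H2-Ob had 6 counts and H2-Oa 3 counts over Normal, each with 0 in the other groups, and H2-Eb2 had no count.

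Macrophage markers, of cells that can carry class II, moved with the set. Of 10 macrophage markers 9 fell in Cisplatin against Normal (median -2.27), 6 rose in RP against Cisplatin (median 1.32) and edgeR called 0 in RP against Normal (median -1.07). In that last comparison 5 had an unadjusted p under 0.05, DESeq2 called 2 as fallen and limma-voom 1. Their summed level was 219 to 291 CPM in Normal, against 23.3 to 73.8 in Cisplatin and 110 to 171 in RP. Csf1r, the receptor for the growth factor of macrophages, was at 59.7 ± 7.74, 6.91 ± 4.54 and 18.8 ± 5.44 CPM. It fell in Cisplatin (-3.10, adjusted p = 2.49e-05), rose in RP against Cisplatin (1.43, adjusted p = 0.00879) and was not called in RP against Normal (-1.67, adjusted p = 0.0672). Mrc1 (-2.33), Cd163 (-2.51) and C1qb (-1.63) fell in Cisplatin as well, and stood at -1.03, -1.18 and -0.14 in RP against Normal without a call. The lectin gene Clec10a, carried by macrophages and some dendritic cells, fell from 20.8 ± 5.26 to 1.56 ± 0.837 CPM (-3.70, adjusted p = 1.13e-05) and was at 12.5 ± 5.93 CPM in RP. Of the 9 dendritic cell markers 3 were tested, and Clec10a was the only one of them that was called; Clec9a (-1.04) and Zbtb46 (0.63) were not called in Cisplatin against Normal. The other 6 were below the filter and did not share a direction. Over Normal, Cisplatin and RP, Itgax had 15, 0 and 3 counts, Flt3 8, 0 and 2, Cd209a 16, 0 and 5, and Batf3 24, 3 and 19. Xcr1 had 17, 14 and 29 counts and Ccr7 4, 7 and 1.

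Per count of the macrophage list, the 7 class II genes had 0.727 to 0.992 counts in the Normal libraries, 0.0515 to 0.184 in Cisplatin and 0.387 to 0.458 in RP. The same quotient against 6 pan-leukocyte genes was 5.62 to 5.95 in Normal, against 0.187 to 0.397 in Cisplatin and 1.47 to 2.13 in RP. Class II counts were thus lower in Cisplatin and in RP also relative to the sums of these lists, with no overlap between groups in either quotient. For RP the quotient depends on which markers are summed. In RP against Normal the macrophage markers ran from -1.94 for Cx3cr1 and -1.67 for Csf1r to -0.14 for C1qb, none called. The class II median of -1.78 lay within that range. Of the pan-leukocyte genes 4 of 6 fell in Cisplatin, with a summed level of 33.4 to 45.4 CPM in Normal, against 7.96 to 25.1 in Cisplatin and 28.8 to 41.1 in RP; Ptprc, which encodes CD45, was at 8.75 ± 2.17, 3.94 ± 2.02 and 6.27 ± 0.956 CPM. The part of these cell types in the class II result was not tested.

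Lymphocyte markers were too scarce for a test of any single gene. The 8 B cell markers in the files summed to 0.965 to 2.40 CPM in Normal, against 0.587 to 1.90 in Cisplatin and 1.01 to 1.96 in RP, and none passed the filter; Pax5 had no count in any group. The 7 T cell markers in the files summed to 1.21 to 3.00 CPM, 0.0950 to 0.587 and 0.504 to 1.96 CPM. Cd4, the coreceptor for class II, had 2, 5 and 1 counts over the groups. None of the other T cell markers had more counts in Cisplatin than in Normal. Cd2 had 27, 0 and 18 counts, Cd3e 12, 0 and 8, and Cd3d 9, 1 and 2. Lck had 7, 0 and 0 counts, Cd3g 2, 0 and 1, and Cd8a 2, 2 and 3. Of 5 genes of lymph node stroma 2 were tested, and they went opposite ways. Glycam1 and Madcam1 had no count. Ccl21a, a chemokine also made by lymphatic vessels, fell in Cisplatin from 10.9 ± 4.52 to 0.291 ± 0.294 CPM (-5.16, adjusted p = 2.32e-05) and rose in RP against Cisplatin (3.75, adjusted p = 0.000572). Cxcl13, a chemokine that attracts B cells, was at 1.78 ± 1.26, 5.12 ± 3.20 and 1.36 ± 1.03 CPM in Normal, Cisplatin and RP. It was not called in Cisplatin against Normal (1.52, adjusted p = 0.0864) and fell in RP against Cisplatin (-1.91, adjusted p = 0.0420).

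Erythroid, tendon and fibro-adipogenic progenitor genes were also lower in Cisplatin than in Normal, while endothelial genes split. All 5 erythroid genes fell in Cisplatin against Normal (median -7.49) and all 5 fell in RP against Normal (median -4.68), and their summed level was 4150 to 8980 CPM in Normal, against 33.9 to 60.4 in Cisplatin and 64.8 to 409 in RP. The globin genes are near-identical copies that may share reads. Of the tendon list, 5 of 5 tested genes fell in Cisplatin and 2, Fmod (-2.12) and Thbs4 (-1.97), fell in RP against Normal; their sums were 182 to 365, 5.98 to 12.2 and 54.3 to 83.9 CPM. All 7 fibro-adipogenic progenitor genes fell in Cisplatin and rose in RP, with sums of 2610 to 3720, 330 to 725 and 1830 to 2690 CPM, and in RP against Normal edgeR and limma-voom called 0, DESeq2 1, with 4 at an unadjusted p under 0.05. Endothelial genes summed to 339 to 388, 210 to 292 and 272 to 346 CPM. Of these 6, Ptprb (-1.29), Kdr (-1.09) and Tie1 (-0.72) fell in Cisplatin, Cldn5 rose (1.92, adjusted p = 0.00158), and Pecam1 (-0.08) and Cdh5 (0.13) were not called. In RP against Cisplatin Ptprb (0.88) and Kdr (0.61) rose and Cldn5 fell (-1.86, adjusted p = 0.00210). How far a lower content of non-muscle cells in the sampled tissue bears on the class II values was not tested.

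**Figure D4:**
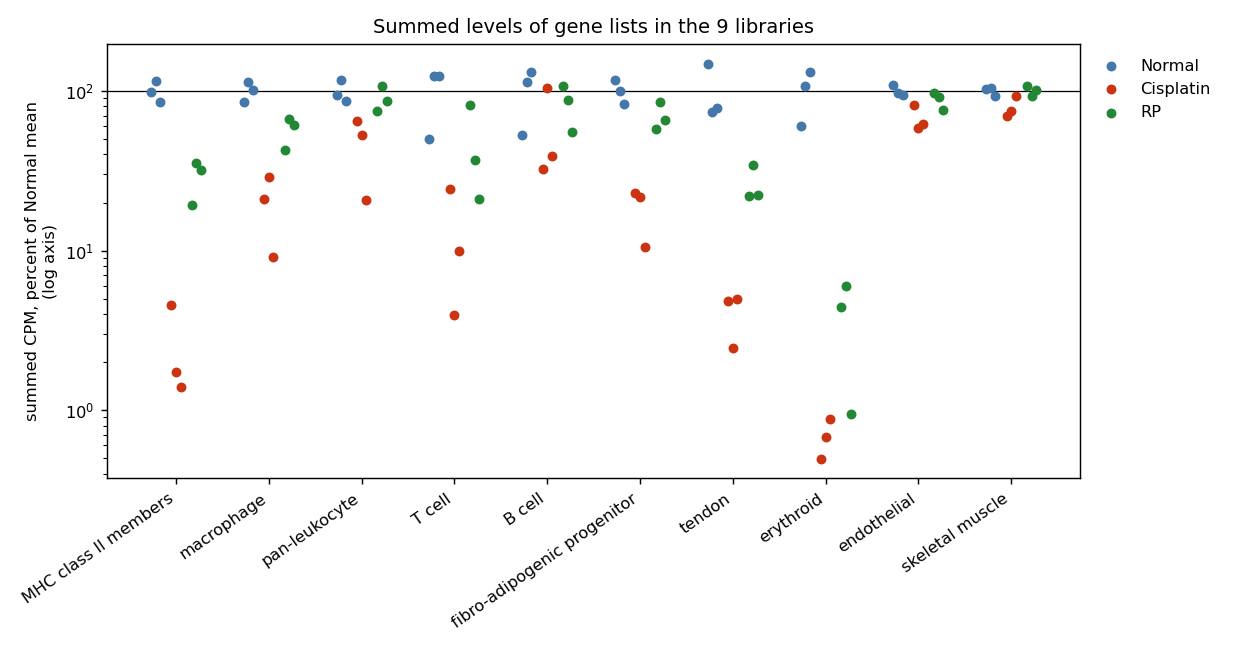
Summed CPM of the 7 class II genes and of 9 lists of cell markers in each library, as percent of the mean of the Normal libraries, on a log axis. The class II sum in Cisplatin averages 2.55% of Normal, the macrophage sum 19.7%, the pan-leukocyte sum 46.3%, the tendon sum 4.08% and the erythroid sum 0.685%; in RP these are 28.9%, 56.9%, 89.2%, 26.2% and 3.79%.

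Outside the set, the genes whose profile over the 9 libraries was most like the mean log2 CPM of the 6 tested genes were named by Pearson correlation out of 9437 genes that averaged 5 CPM or more. The 8 highest were Timp2 (r = 0.992), Clybl (0.991), Plcl1 (0.990), Epb4.1l2 (0.990), Nid1 (0.989), Angptl1 (0.988), Rab29 (0.986) and Wipf1 (0.985). All 8 were highest in Normal, lowest in Cisplatin and intermediate in RP, which is the order of groups that sets a high r with 9 libraries in 3 groups. Their amplitudes differed: Timp2, an inhibitor of matrix metalloproteinases, was at 482 ± 59.5, 99.9 ± 23.8 and 281 ± 33.8 CPM, and Angptl1 at 13.8 ± 2.61, 0.614 ± 0.237 and 5.46 ± 2.12 CPM. None of the 8 belongs to the immune cell lists, but most genes of those lists averaged under 5 CPM and so were not ranked.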

How the data were processed

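Gastrocnemius RNA of 9 samples was sequenced from Lexogen QuantSeq 3′ libraries made from 500 ng of total RNA, per the labels' protocols. The authors deposited raw counts per gene symbol, 23282 rows a file; Bowtie2, edgeR and mm10 are named without versions or roles in the submitters' processing notes. Rows sharing a symbol were summed. The fit was edgeR 4.0.16 (R 4.3.3): filterByExpr by group, TMM scaling, glmQLFit on all libraries with a coefficient per group, glmQLFTest, and Benjamini-Hochberg adjusted p under 0.05 over all genes tested; it was tested on simulated data. The SE was derived from the F statistic and the log2 fold change. Replicates differed by more than counting error (chi-square per degree of freedom 11.3 to 28.9). The genes and lists were chosen with earlier results of these data known. Named genes were the 7 members, up to 4 called genes of each other list by p, whole lists of up to 7, and the 8 of most similar profile; Brd2, Psmb8, Psmb9, Tap1, Tap2 and the uncalled or scarce cell markers were added after their values were seen. Alternatives were RLE or library-size scaling, limma-voom 3.58.1, DESeq2 1.42.0, a filter at 5 CPM in 3 libraries or none, 2 groups alone, a replicate block, leaving out each library and, chosen after seeing the data, leaving out Rn45s. Figures used matplotlib 3.10.9. Some genes of the lists are not reported here.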

Additional observations from a re-analysis of the deposited data

How the results depend on the processing

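Against Cisplatin, for Normal and RP alike, the log2 fold changes of the 6 tested genes kept their direction and their call in all 89 gene and setting pairs of each comparison; H2-DMa could not be tested with at least 5 CPM in 3 libraries. In RP against Normal all 89 kept their direction, 11 lost and 2 gained a call, and fallen genes numbered 1 to 5 over the alternatives. Leaving out 1 Normal or RP library gave 1 to 4 fallen genes there, with 1 without Normal replicate 1 or RP replicate 1 and 2 without RP replicate 3. Each comparison was checked only without libraries of its own 2 groups. Over all genes that comparison called 14 to 58 fallen and 8 to 59 rising genes when a library was left out, 126 and 103 with DESeq2, and 170 and 123 without a filter, against 41 and 24. With library size as the only scaling, the median log2 fold change of all genes moved from 0.07 to 0.21 in RP against Cisplatin. Replicate numbers are shared between groups, but nothing in the labels ties them to a batch or litter, and deviations of same-numbered libraries correlated at -0.124 to 0.158. With a replicate block, 6 class II genes fell in Cisplatin against Normal, 6 rose in RP against Cisplatin and 4 fell in RP against Normal, and no call changed. In the alternative that leaves out Rn45s, chosen after seeing the data, the counts were the same 6, 6 and 4. Depth limits Ciita and, in Cisplatin, the H2-DM genes. Other causes of the lost calls were not tested.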
